A study of Mus musculus with 6 samples.

Results

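MiR-103, miR-107 and miR-802 are microRNAs (miRNAs) known for their part in insulin resistance, and their levels were followed here in liver of the STAM mouse. They were chosen by probe name, as the probes of mmu-miR-103, mmu-miR-107 and mmu-miR-802 without a star, and all 3 were found among the 1096 mouse probes of the array. Total RNA of 6 liver samples was hybridised, 1 sample per array, to 1-colour miRNA arrays. The HCC group held 3 samples of hepatocellular carcinoma of STAM mice (HCC 1, HCC 2-1 and HCC 2-2). The NT group held 2 STAM livers sampled outside the tumours (NT 1 and NT 2), and the normal group was the normal liver of 1 control mouse. STAM mice are injected with STZ (streptozotocin, which destroys insulin-producing cells) and fed a high-fat diet, pass through non-alcoholic steatohepatitis (NASH), and per the labels develop HCC at 18 weeks of age. The strain background of all samples was C57BL6. The labels give no age for the single animals, no diet or age for the control mouse, and do not say whether HCC 2-1 and HCC 2-2 came from 1 mouse or whether equal numbers mark 1 mouse. The p-values therefore measure the spread between these samples only, and the normal group has no spread of its own.

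MiRNAs are short RNAs that pair, mainly through bases 2 to 8 of their 5′ end (the seed), with messenger RNAs and lower their translation or stability. In mice, miR-103 and miR-107 are known to be raised in the liver of obese animals, where they target caveolin-1, a membrane protein that stabilises the insulin receptor, and silencing them improves insulin sensitivity. MiR-802 is likewise known from obese mouse liver, where it impairs glucose tolerance. STAM mice join loss of insulin-producing cells with fatty liver, so the comparison of NT with normal liver addresses the diabetic, fatty liver outside the tumours, and that of HCC with NT addresses tumour against non-tumour liver of the same model.

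The mature strands that the 3 probes are named for are shown because they set how far the probes can be told apart. All 3 were matched in RefSeq (GRCm38.p6), and the seed is in capitals, from 5′ to 3′:
mmu-miR-103-3p: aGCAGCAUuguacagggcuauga
mmu-miR-107-3p: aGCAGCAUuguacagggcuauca
mmu-miR-802-5p: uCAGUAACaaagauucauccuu

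MiR-103-3p and miR-107-3p are equal at 22 of 23 bases and differ by G22C, counted from 1 at the 5′ end with the base of miR-103 first. Their seed, GCAGCAU, was held by these 2 and by no other of 1679 mature mouse strands in the table, and the seed of miR-802, CAGUAAC, by miR-802 alone. The probe sequences were not used here, so whether the probes of miR-103 and miR-107 distinguish the single different base is unknown, and RNA of one may be read by the probe of the other. Mature miR-103-3p is also made from 2 hairpins, which the array cannot tell apart.

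The hairpins show this shared origin. Printed from 5′ to 3′, with the main strand in capitals, they are:
Mir103-1: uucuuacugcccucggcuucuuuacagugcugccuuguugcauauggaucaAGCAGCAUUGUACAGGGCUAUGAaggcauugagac
Mir103-2: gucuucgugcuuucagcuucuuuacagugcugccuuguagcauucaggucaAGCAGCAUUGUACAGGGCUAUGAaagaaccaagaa
Mir107: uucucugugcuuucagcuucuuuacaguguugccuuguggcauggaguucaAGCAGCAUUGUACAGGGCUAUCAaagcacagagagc
Mir802: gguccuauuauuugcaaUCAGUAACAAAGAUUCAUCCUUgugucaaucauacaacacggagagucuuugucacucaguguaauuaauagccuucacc

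In GRCm38.p6, Mir103-1 lies at chr11:35782396-35782481 on the plus strand, within the span of Pank3. Mir103-2 lies at chr2:131288052-131288137 on the plus strand, within Pank2. Mir107 lies at chr19:34820687-34820773 on the minus strand, within Pank1. The Pank genes encode pantothenate kinases, the enzymes of the first step of coenzyme A synthesis, and each hairpin is on the strand of its host gene. Mir802 lies at chr16:93369720-93369816 on the plus strand, inside the span of no other gene. Its nearest protein-coding neighbours are Runx1, 543646 bases before it, and Setd4, 213641 bases after it. Whether the hosted hairpins are exonic or intronic was not looked up, since the table used gives gene spans only.

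Between 403 probes (normal liver) and 540 probes (HCC 2-2) were above background per array. Above background here means a spot more than 2 SD over the mean of the 1818 blank spots, computed per array with the brightest and dimmest 5% of them set aside. Among the 39 viral probes of the array, 25.6% (normal liver) to 48.7% (NT 1) were also above background. The range for mouse probes was 36.8% (normal liver) to 49.3% (HCC 2-2). On NT 1 the viral probes passed more often than the mouse probes (43.6%), and on the other arrays less often. Passing the threshold alone is therefore weak evidence of expression. Pairs of arrays correlated between 0.968 and 0.991 over the mouse probes. The scanner gain was 41 for HCC 1, 39 for HCC 2-1 and HCC 2-2, and 38 for both NT arrays and the normal liver, so that gain and group are partly tied and raw spot intensities cannot be set side by side without scaling. Of the liver-defining markers, miR-122, miR-192 and miR-194 were above background on all 6 arrays and held 5.42%, 8.47% and 10.4% of the mouse probe signal in HCC, 12.4% and 9.94% in NT and 12.5% in the normal liver. Between groups, fewer cells of a type and less RNA per cell cannot be told apart in such bulk samples.

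MiR-103 was bright on every array, and how far the groups differed depended on the scale. Its spot intensity, in scanner units, was 347 in HCC 1, 343 in HCC 2-1 and 363 in HCC 2-2. It was 259 in NT 1, 275 in NT 2 and 162 in the normal liver. Raw intensity was thus highest on the 3 HCC arrays, which also had the highest gain, lower on both NT arrays and lowest in the normal liver, which had the gain of the NT arrays. After background correction and quantile normalization, which gives all arrays the same set of values, the log2 level was 8.52, 8.34 and 8.29 in HCC, 8.42 and 8.19 in NT, and 8.25 in the normal liver. On this normalized scale the HCC arrays overlapped the NT arrays, NT overlapped the normal liver, and all HCC arrays lay above the normal liver. Group means were 8.39 ± 0.12 in HCC (SD, n = 3) and 8.31 ± 0.16 in NT (SD, n = 2), so the order was HCC, NT, normal liver, with no neighbours separated beyond their spread.

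MiR-107, the near copy of miR-103, had the same order. Its spot intensity was 312, 292 and 331 in HCC 1, HCC 2-1 and HCC 2-2, 221 and 247 in NT 1 and NT 2, and 146 in the normal liver. Raw intensity again separated the 3 groups, as for miR-103, and for neither was the share of all probes that did so counted. Its normalized log2 level was 8.42, 8.19 and 8.13 in HCC, 8.13 and 8.13 in NT, and 8.09 in the normal liver. HCC 2-2 equalled both NT arrays and HCC 1 stood highest. The equal NT values follow from the method, since miR-107 held rank 50 of 1095 probes on both arrays and equal ranks receive equal values, so their SD of 0 understates the spread. The mean was 8.25 ± 0.16 in HCC (SD, n = 3), against 8.13 in NT, and NT lay 0.04 above the normal liver.

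MiR-802 was dim, and on 2 HCC arrays it was not above background. Its spot intensity was 18 in HCC 1, where the background threshold was 20.7, 15 in HCC 2-1 with a threshold of 17.9, and 31 in HCC 2-2 with a threshold of 16.8. It was 22 in NT 1 with a threshold of 14.5, 21 in NT 2 with a threshold of 15.3, and 25 in the normal liver with a threshold of 15.4. The probe was therefore above background on 1 of 3 HCC arrays, on both NT arrays and in the normal liver, and the brightest and the dimmest spots were both in HCC. Among the 1818 blank spots of each array, 948 in HCC 1 and 1159 in HCC 2-1 were as bright as the miR-802 spot or brighter, against 1 in HCC 2-2, 3 in NT 1, 1 in NT 2 and 2 in the normal liver. On the normalized scale its log2 level was 5.79, 5.74 and 6.04 in HCC, 6.06 and 5.92 in NT, and 6.29 in the normal liver. Normal liver was the highest, and the value of HCC 2-2 lay between those of the NT arrays. Group means were 5.86 ± 0.16 in HCC (SD, n = 3) and 5.99 ± 0.10 in NT (SD, n = 2), so miR-802 ran in the opposite order to miR-103 and miR-107, again with HCC and NT overlapping.

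**Figure D1:**
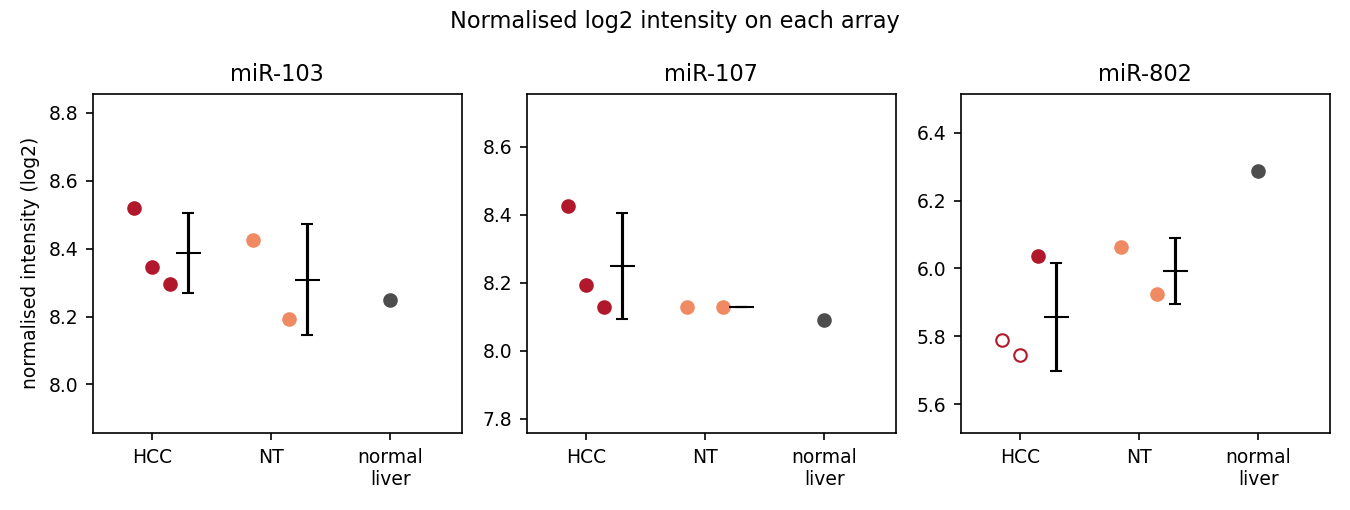
Normalized log2 intensity of miR-103, miR-107 and miR-802 (vertical axes, each panel with its own range) on the HCC, NT and normal liver arrays. Points are arrays, horizontal marks with bars are means and SD (HCC n = 3, NT n = 2), and open points were not above background; miR-103 spans 8.19 to 8.52 over all arrays and miR-802 spans 5.74 to 6.29, with the normal liver at its top.

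The HCC samples were also uneven in their hepatocyte markers. The 2 HCC arrays without miR-802 above background had the lowest summed share of miR-122, miR-192 and miR-194, at 5.42% of mouse probe signal in HCC 1 and 8.47% in HCC 2-1, whereas HCC 2-2 had 10.4%, within the 9.94% to 12.4% of NT and below the 12.5% of the normal liver. The part of these cells in the miR-802 values was not tested. Markers of other cell types also differed between the arrays. The 6 leukocyte markers held 0.251%, 0.185% and 0.247% of the signal in HCC, 0.257% and 0.393% in NT and 0.120% in the normal liver, and the 5 stellate and mesenchymal markers held 0.345%, 0.303% and 0.328% in HCC, 0.454% and 0.693% in NT and 0.276% in the normal liver. For both lists, as for the shares of miR-103 and miR-107 given further on, the normal liver was lowest, and the part of these cells in those shares was not tested. It was not lowest for every list. The 2 endothelium markers held 0.988%, 1.52% and 1.98% in HCC, 1.67% and 1.75% in NT and 1.02% in the normal liver. The 6 bile duct and epithelium markers held 0.0553%, 0.0363% and 0.0992% in HCC, 0.132% and 0.142% in NT and 0.101% in the normal liver. Like the hepatocyte markers, the latter were lowest in HCC 1 and HCC 2-1. Of the nerve markers, miR-124 and miR-9 were above background on no array, miR-128 on 5 and miR-129-5p on 4, and the 4 together held at most 0.0227% of the signal.

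HCC was first compared with NT, tumour against non-tumour liver of the model. No tested miRNA passed limma's test at an adjusted p of 0.05 among 613 probes (percentage called: 0), while 21 (3.43%) were higher and 35 (5.71%) lower at an unadjusted p of 0.05, none of the 3 miRNAs among them. MiR-103 was 0.08 higher in HCC on the log2 scale (SE 0.10, 95% interval -0.19 to 0.35, limma adjusted p = 0.879). In linear terms the interval runs from 0.874 to 1.27 fold. MiR-107 was 0.12 higher (SE 0.10, 95% interval -0.14 to 0.38, limma adjusted p = 0.760), with a fold of 1.09 and an interval from 0.910 to 1.30. For miR-802 the difference was -0.14 (SE 0.11, 95% interval -0.42 to 0.14, limma adjusted p = 0.760). All 3 miRNAs overlapped between HCC and NT, as did most probes: 10.9% of tested probes were higher and 12.7% lower on every HCC array than on every NT array. On the chip that held both groups, HCC 1 minus NT 2 was 0.33 for miR-103, 0.30 for miR-107 and -0.14 for miR-802. With the chip as a fixed block the differences were the same as on that chip, with limma adjusted p between 0.475 and 0.816. The miR-103 difference turned on 1 array: without NT 2 it was -0.04 (limma adjusted p = 0.943). That of miR-107 was 0.032 without HCC 1 and 0.18 without HCC 2-2. That of miR-802 ranged from -0.23 (without HCC 2-2) to -0.068 (without NT 1). It was -0.32 at offset 16, -0.48 with no background correction and -2.16 with the blank level subtracted (limma adjusted p between 0.615 and 0.710). The size of -2.16 depends on a floor of 1 unit, since HCC 1 (0.36 units) and HCC 2-1 (-0.14 units) lay below it.

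NT was next compared with normal liver, the diabetic and fatty liver outside the tumours against a single control. MiR-103 was 0.06 higher in NT (SE 0.14, 95% interval -0.30 to 0.42, limma adjusted p = 0.884), and its NT arrays lay on both sides of the normal liver. MiR-107 was 0.04 higher (SE 0.13, 95% interval -0.30 to 0.38, limma adjusted p = 0.933). For miR-802 the difference was -0.29 (SE 0.14, 95% interval -0.67 to 0.08, limma adjusted p = 0.467, unadjusted p = 0.101). None of the 3 passed, and 0.163% of the 613 tested probes did. At an unadjusted p of 0.05, 5.55% of tested probes were higher and 7.01% lower, and none of the 3 was among them. MiR-107 lay above the normal liver on both NT arrays, as 36.7% of tested probes did, and miR-802 lay below it on both, as 35.1% did. With a single normal array, 1 value decides this position. On the chip that held both groups, NT 1 minus normal liver was 0.18 for miR-103, 0.04 for miR-107 and -0.22 for miR-802. The fit with the chip as a fixed block gave the same values with limma adjusted p between 0.449 and 0.835. Without NT 1, miR-103 was -0.06 relative to normal liver (limma adjusted p = 0.900).

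HCC and normal liver were compared last, with the same arrays as in the other comparisons. MiR-103 was 0.14 higher in HCC (SE 0.13, 95% interval -0.21 to 0.48, limma adjusted p = 0.641) and miR-107 was 0.16 higher (SE 0.12, 95% interval -0.16 to 0.48, limma adjusted p = 0.589). Both lay above the normal liver on all 3 HCC arrays, as 33.0% of tested probes did. MiR-802 had the largest difference of the 3 miRNAs in any comparison, -0.43 (SE 0.13, 95% interval -0.78 to -0.07). Its unadjusted p of 0.0274 ranked 63 of 613, and limma's adjusted p was 0.266, so it did not pass, where 0.163% of probes did. It was lower than the normal liver on all 3 HCC arrays, as 30.8% of tested probes were, and 8.48% of tested probes were lower, and 7.67% higher, at an unadjusted p of 0.05. The normal liver shared no chip with an HCC array, and the difference could be linked only through the NT arrays. With the chip as a fixed block it was 0.50 for miR-103, 0.34 for miR-107 and -0.36 for miR-802, with limma adjusted p between 0.570 and 0.739. Scaling decided calls here. MiR-103 was 0.92 with median scaling (limma adjusted p = 0.0396) and 0.85 with upper-quartile scaling over all probes (limma adjusted p = 0.0318). Under these the median of 102 bright probes, defined further on, was itself 0.59 and 0.52, which leaves miR-103 at 0.33 above it in both. Relative to the median of all tested probes, miR-103 was 0.86 in both. MiR-802 was -0.86 (limma adjusted p = 0.00377) with upper-quartile scaling over probes above background on all arrays, under which the median of all tested probes was -0.61. Relative to that median miR-802 was -0.25. Relative to the bright probes, whose median was -0.09 there, it was -0.77.

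**Figure D2:**
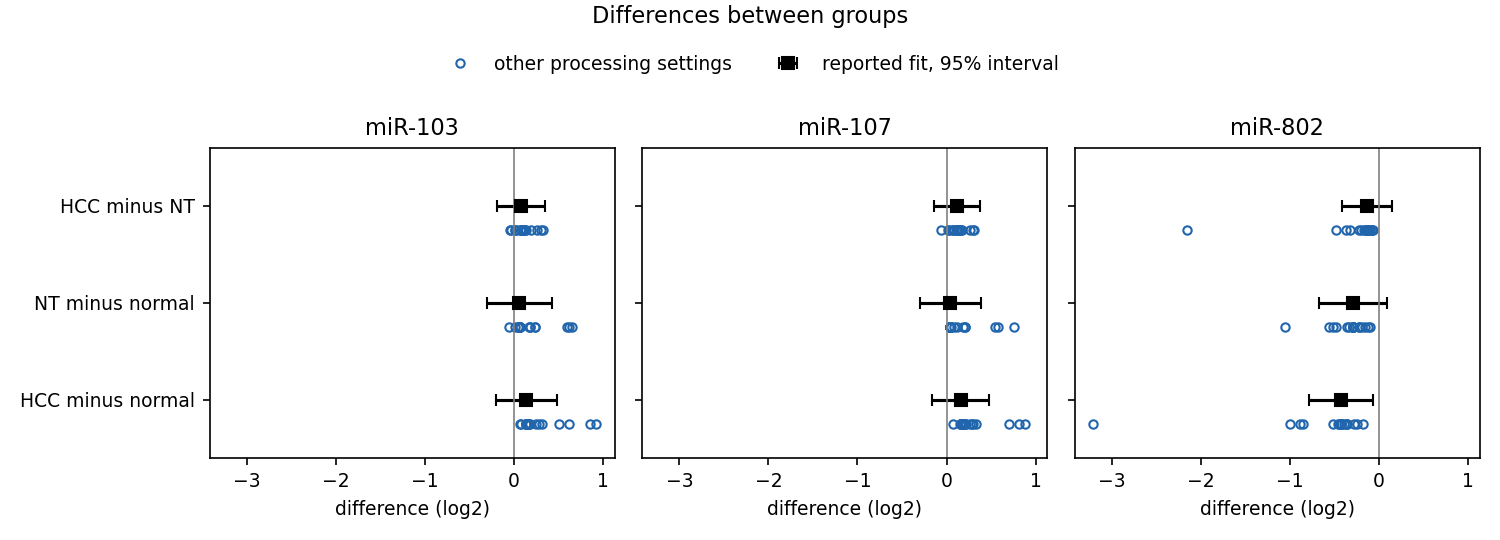
Differences in log2 level (horizontal axes) of miR-103, miR-107 and miR-802 for HCC minus NT, NT minus normal liver and HCC minus normal liver. Black squares with bars are the reported limma differences with 95% intervals and open circles are other processing settings; for miR-802 in HCC minus normal liver the square lies at -0.43 and the circles run from -3.21 to -0.18.

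The size of the miR-103 and miR-107 differences depended on the scale. When the mean level of the blank spots was subtracted and nothing was scaled, miR-103 averaged 335 ± 11.7 scanner units in HCC (SD, n = 3), 254 ± 10.9 in NT (SD, n = 2) and 149 in the normal liver. MiR-107 averaged 296 ± 20.0 in HCC, 221 ± 17.9 in NT and 133 in the normal liver. HCC was thus 2.25 fold of normal liver for miR-103 and 2.23 fold for miR-107 before any scaling, on arrays whose summed mouse signal also differed, from 77552 to 93468 units in HCC, against 63505 and 73380 in NT and 57265 in the normal liver. Divided by that sum, miR-103 held 0.412%, 0.423% and 0.373% of the signal in HCC, 0.388% and 0.357% in NT, and 0.260% in the normal liver. MiR-107 held 0.369%, 0.357% and 0.339% in HCC, 0.328% and 0.319% in NT, and 0.232% in the normal liver. In shares, all STAM arrays lay above the normal liver for both miRNAs, which 42.6% of the 613 tested probes did for HCC and 43.2% for NT. MiR-107 was also higher in share on every HCC array than on either NT array, as 17.9% of tested probes were, whereas miR-103 overlapped.

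In fold of mean share, miR-103 was 1.55 in HCC over normal liver and 1.43 in NT over normal liver, and miR-107 was 1.53 and 1.40. The median of 102 bright probes (above background on all 6 arrays, with a mean blank-subtracted signal of at least 50 units) was itself 1.21 in HCC over normal liver and 1.14 in NT over normal liver. Ordered from the highest fold, miR-103 ranked 31 and miR-107 ranked 33 of these 102 in HCC over normal liver. Like both miRNAs, 52.9% of the bright probes lay above the normal liver in share on every HCC array. On both NT arrays 51% did. The 5 brightest probes of each array took 42.5%, 40.1% and 38.2% of its signal in HCC, 49.1% and 42.4% in NT and 54.3% in the normal liver. The highest mouse spot read 16383 scanner units. Whether the brightest spots were cut off at a scanner limit, which would affect all shares, was not tested. In HCC over NT the folds of mean share were 1.08 for miR-103 and 1.10 for miR-107, beside a median of 1.04 for the bright probes. Like miR-107, 15.7% of the bright probes were higher in share on every HCC array than on either NT array.

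MiR-802 was lower in share too. It held 0.000453%, 0% and 0.0180% of the signal in HCC 1, HCC 2-1 and HCC 2-2, 0.0150% and 0.0107% in NT 1 and NT 2, and 0.0206% in the normal liver. The normal liver was highest and HCC 2-2 was above both NT arrays. Below the normal liver in share on every array of the group, as miR-802 was, were 19.7% of tested probes in HCC and 30.2% in NT, whereas HCC and NT overlapped for miR-802 (8.97% of tested probes were lower on every HCC array). Signals were at most 16.8 units above the blanks. The pixel SD within the spot was 7.63 to 11.1 units, which is not the error of the spot's median. The SD between blank spots was 1.02 (NT 1) to 1.52 (HCC 1) units. Blank-subtracted values ran from -0.14 to 16.8 units within HCC, so the fold between groups is poorly measured. The 0% of HCC 2-1 stands for a spot just below the mean of its blanks.

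**Figure D3:**
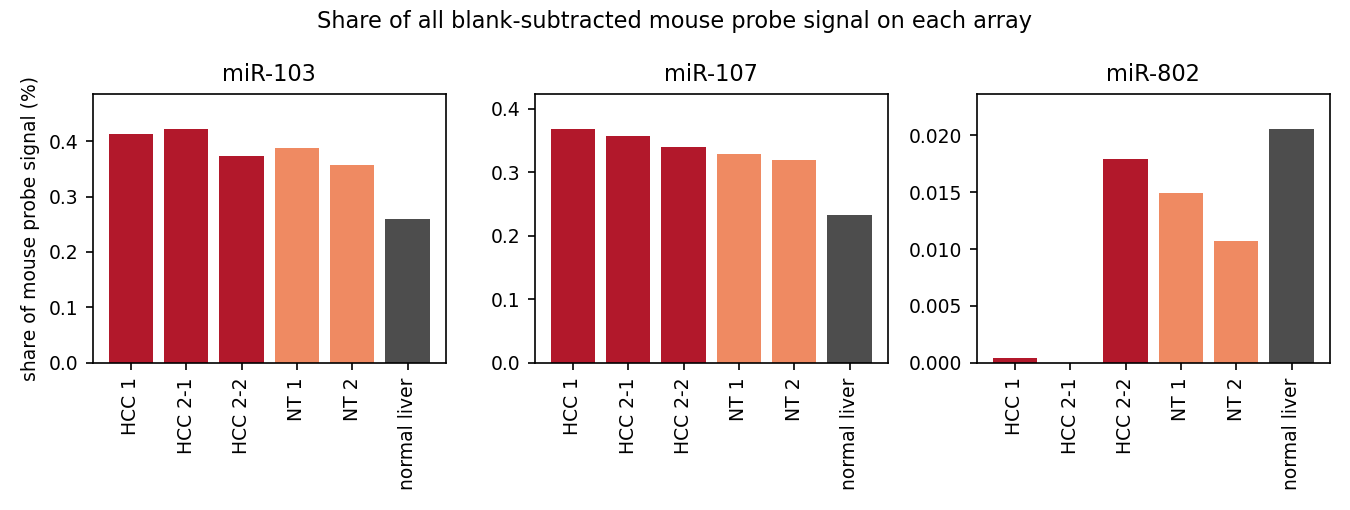
Share of all blank-subtracted mouse probe signal (vertical axes, in percent, from 0) held by miR-103, miR-107 and miR-802, with 1 bar per array. For miR-103 the 5 STAM bars lie between 0.357% and 0.423% and the normal liver bar at 0.260%; for miR-802 the bars of HCC 1 and HCC 2-1 are near 0.

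The authors' deposited table, whose values are scaled to a common median of 25 per array, gave another scale. MiR-103 was 1209, 1480 and 1442 in HCC, 1470 and 1346 in NT, and 895 in the normal liver. All STAM arrays were above the normal liver, and HCC and NT overlapped. MiR-107 was 1117, 1261 and 1293 in HCC, 1337 and 1208 in NT, and 752 in the normal liver, in the same pattern. On this scale the ratio of HCC to NT means was 0.978 for miR-103 and 0.961 for miR-107, below 1, where the normalized values put HCC higher. The ratios of NT to normal liver were 1.57 and 1.69. On this scale the median log2 difference of the 348 probes tested was itself 0.33 in NT minus normal liver. It was 0.32 in HCC minus normal liver and -0.07 in HCC minus NT. The share of all probes above the normal liver on all STAM arrays was not counted on this scale. MiR-802 had no value in HCC 1 and HCC 2-1, 69.1 in HCC 2-2, 60.7 and 34.2 in NT, and 78.1 in the normal liver. For miR-802 the authors' table and the background threshold thus leave out the same 2 arrays, but both read the same spots. They differed for star strands, given further on. MiR-103-1* had a value in HCC 1 and NT 2 without being above background. MiR-107* had none in NT 1, where it was above.

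Against the median of the 102 bright probes, a reference chosen after the data were seen, the direction of the differences was more even over the settings than their size. MiR-103 was above that median in 22 of 22 settings for HCC minus NT, by 0.02 to 0.33 on the log2 scale. For NT minus normal liver it was above in 21 of 22, the exception being the fit without NT 1 at -0.06, and the highest value was 0.31. For HCC minus normal liver it was above in 22 of 22, by 0.11 to 0.53. MiR-107 was above in 22 of 22 settings in each comparison, by 0.06 to 0.30, 0.03 to 0.41 and 0.11 to 0.44. MiR-802 was below it in 20 of 20 settings in each comparison. These settings use the same 6 arrays and are not independent of each other. Many repeat the same value by construction. Scaling a whole array shifts a probe and this median alike, and a filter, a variance prior or an array outside the comparison leaves the difference unchanged. The counts of settings therefore overstate how even the direction was.

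The profiles of miR-103 and miR-107 over the arrays lay close together. After each miRNA was centred on its own mean over the 6 arrays, the root mean square difference between them was 0.07 on the log2 scale, against a median of 0.16 between miR-103 and the 281 other probes above background on all 6 arrays. Other probes lay closer to each of them. The 3 nearest to miR-103 were at 0.0554 to 0.0617, and the 3 nearest to miR-107 at 0.0415 to 0.0584. MiR-103 minus miR-107, centred, ran over a range of 0.23, with the highest value, 0.14, in NT 1 and the lowest, -0.09, in NT 2. MiR-802 minus miR-103 ran over a range of 0.77, with the lowest value, -0.37, in HCC 1 and the highest, 0.40, in the normal liver. Reading of 1 RNA by both probes, whose named strands are equal at 22 of 23 bases as printed above, was not tested.

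By the smallest root mean square difference over 6 arrays, the probes most like miR-103 were miR-28 (0.0554), miR-140 (0.0600) and miR-28c (0.0617). Those most like miR-107 were miR-140 (0.0415), miR-151-5p (0.0436) and miR-140* (0.0584). Those most like miR-802 were miR-192* (0.0757), miR-30e (0.0804) and miR-101a (0.0910), of 282 candidates with a median of 0.207. MiR-192*, the minor strand of the liver-rich miR-192, was -0.36 in HCC minus normal liver, miR-30e was -0.40 and miR-101a was -0.28. Since these probes were picked for their likeness over the same arrays, their differences add nothing to that of miR-802, and none passed limma's test. The probes nearest to miR-103 and miR-107, picked in the same way, were 0.06 to 0.22 in HCC minus normal liver, and none of these passed.

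**Figure D4:**
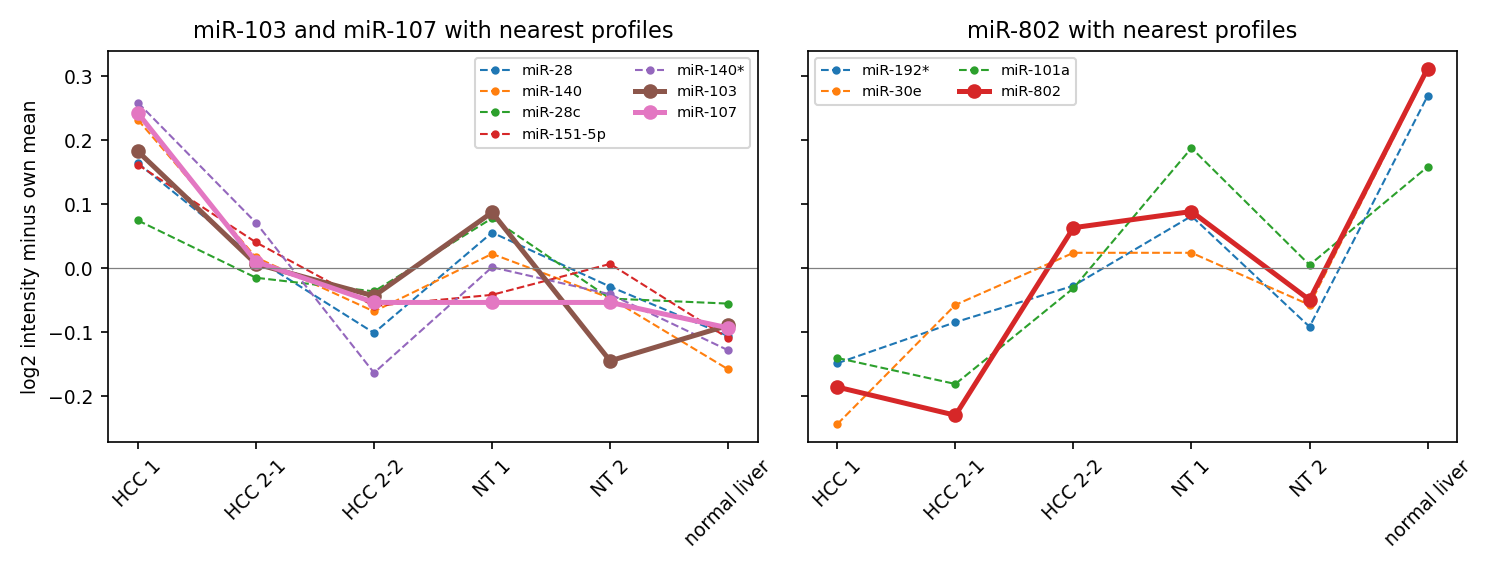
Normalized log2 intensity minus the mean of each miRNA over the 6 arrays (vertical axis) on each array (horizontal axis), for miR-103 and miR-107 (left) and miR-802 (right) in bold, each with its nearest probes as dashed lines. MiR-103 and miR-107 peak in HCC 1 and lie lowest in NT 2 (miR-103) or the normal liver (miR-107), while miR-802 is lowest in HCC 2-1 and highest in the normal liver.

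The minor (star) strands of the 4 hairpins are also on the array. For the miR-103 and miR-107 hairpins they can be told apart by 1 or 2 bases, in capitals here, where the main strands of Mir103-1 and Mir103-2 cannot:
mmu-miR-103-1-5p: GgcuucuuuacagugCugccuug
mmu-miR-103-2-5p: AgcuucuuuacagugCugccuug
mmu-miR-107-5p: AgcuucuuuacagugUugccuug
mmu-miR-802-3p: acggagagucuuugucacucag

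The star strands of miR-103-1 and miR-103-2 differ by G1A, and those of miR-103-2 and miR-107 by C16U, so the probes may share RNA. All 4 star probes stayed at 13 to 21 scanner units on every array, near the blank spots. MiR-103-1* was above background in HCC 2-2 and in the normal liver and on no NT array. MiR-103-2* was above background in HCC 1, HCC 2-2 and NT 1. MiR-107* was above background in NT 1 alone and miR-802* in the normal liver alone, so neither was tested. Of blank spots, 4.18% to 8.75% per array also exceeded the threshold. Viral probes exceeded it more often, at 25.6% to 48.7% per array. In HCC minus NT, miR-103-1* was 0.04 (limma adjusted p = 0.829) and miR-103-2* was -0.01 (limma adjusted p = 0.956). Which hairpin, Mir103-1 or Mir103-2, gave the bright main strand was not measurable from star strands at these signals.

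**Figure D5:**
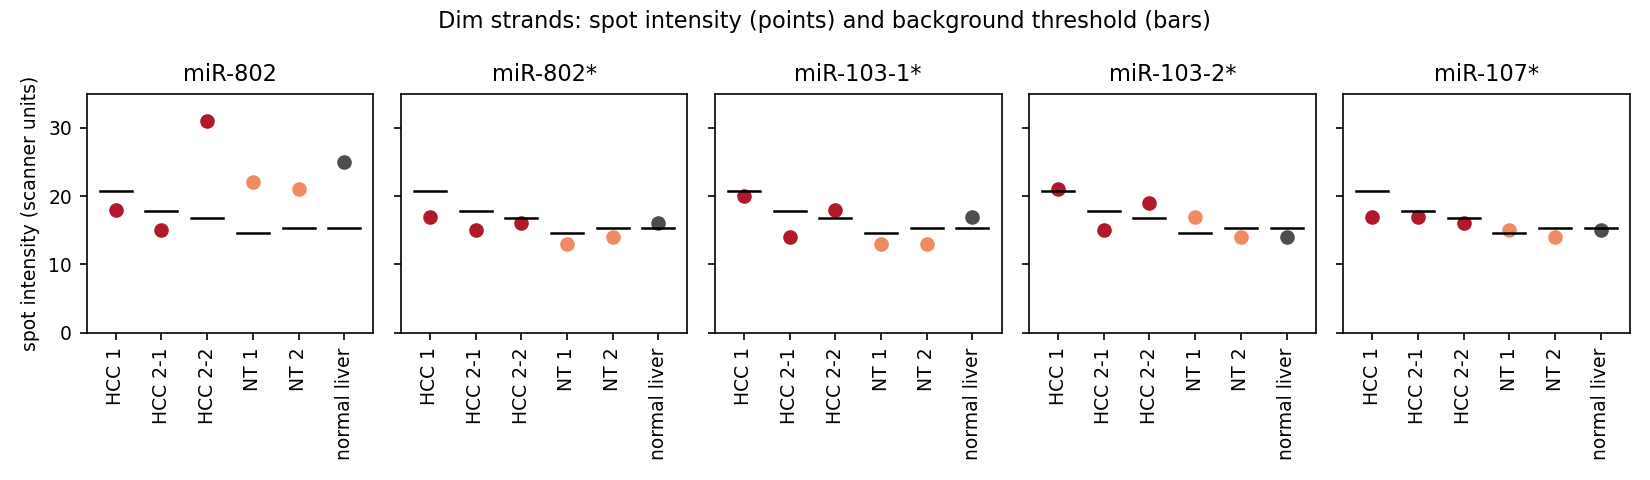
Spot intensity in scanner units (points, vertical axis from 0) of miR-802 and of the 4 star strands on each array, with the background threshold of that array as a bar. MiR-802 lies above the bar in HCC 2-2, both NT arrays and the normal liver, while the star strands stay between 13 and 21 units, at or near the bars.

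The letters GCAGCA that start at base 2 of miR-103 and miR-107 also occur, starting at base 3, in the miR-15/16 family, which is known to restrain the cell cycle. They stand in the first 10 bases of 15 of 1679 mature mouse strands (0.893%), read on the strand itself. MiR-16 shows the shift by 1 base, with the letters in capitals:
mmu-miR-16-5p: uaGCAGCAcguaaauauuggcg

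All 6 family members looked up (miR-15a, miR-15b, miR-16, miR-195, miR-322 and miR-497) were tested, and none passed in any comparison. In HCC minus NT, 2 were higher and 4 lower, with a median of -0.11, where miR-103 was 0.08 and miR-107 0.12. In NT minus normal liver, 5 were higher and 1 lower, with a median of 0.32, and in HCC minus normal liver 4 were higher and 2 lower, with a median of 0.20. The median over all tested probes was 0.00 in HCC minus NT, 0.00 in NT minus normal liver and 0.01 in HCC minus normal liver. MiR-16 itself was 0.57 in NT minus normal liver (limma adjusted p = 0.311) and 0.39 in HCC minus normal liver (limma adjusted p = 0.300).

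The 3 miRNAs were set beside a list of 50 other miRNAs known from insulin signalling, glucose production or liver lipid handling. Of these, 49 were on the array and 48 were tested; miR-424 was not matched and miR-206 was too dim to test. In HCC minus NT, 17 were higher and 31 lower, with a median of -0.08, and none passed (0% of all tested probes). The lowest unadjusted p belonged to let-7c, a let-7 member known to act on insulin signalling genes, at -0.28 (limma adjusted p = 0.0920), and to miR-195 at -0.36 (limma adjusted p = 0.0920). On the higher side they belonged to miR-221 at 0.17 (limma adjusted p = 0.465) and miR-185, known to act on sterol regulation, at 0.27 (limma adjusted p = 0.560). MiR-103 and miR-107, at 0.08 and 0.12, lay on the less common, higher side of the list and miR-802 on the lower side.

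In NT minus normal liver, 39 of the 48 were higher and 9 lower, with a median of 0.16, and 1 passed, where 0.163% of the 613 tested probes did. It was miR-451, a miRNA of red blood cells and the only probe of the array to pass in this comparison, which was 2.80 higher (limma adjusted p = 0.0228). The erythroid markers miR-451, miR-144 and miR-486 together held 0.656% and 0.735% of mouse signal in NT, against 0.0304% in the normal liver, and the part of blood in any value was not tested. The other erythroid markers were dim, at mean log2 levels of 5.92 (miR-144) and 5.90 (miR-486) in NT. MiR-144 was 0.07 higher in NT (limma adjusted p = 0.725) and miR-486 0.12 (limma adjusted p = 0.449). The sum thus does not show 3 markers rising alike. MiR-195 was 0.33 (limma adjusted p = 0.295). On the lower side were miR-30c, known to restrain lipoprotein assembly, at -0.47 (limma adjusted p = 0.295) and miR-148a, known to act on the LDL receptor, at -0.61 (limma adjusted p = 0.326).

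In HCC minus normal liver, 29 were higher and 19 lower, with a median of 0.02, and miR-451 alone passed, 2.73 higher (limma adjusted p = 0.0198), again the only call among all tested probes (0.163%). No miRNA passed in either comparison with normal liver once the chip was a fixed block, or once HCC 1 or HCC 2-2 was left out. Without HCC 2-1, 1 passed in each comparison. Fits without an NT array leave 1 NT sample and are not counted here, so they do not show that the call held. With the chip as a random block (arrays of a chip taken as correlated), 1 passed in each. MiR-222 was 0.25 (limma adjusted p = 0.181), miR-30c was -0.67 (limma adjusted p = 0.153) and miR-148a was -0.80 (limma adjusted p = 0.181). MiR-802, at -0.43, shared the lower side with miR-30c and miR-148a in both comparisons with normal liver, which use the same control array, and like them it did not pass.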

How the data were processed

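Each sample was labelled with Hy5 and hybridised to a Toray mouse miRNA chip with 2 cells per chip, per the labels and the file headers. Chip 1 held the normal liver and NT 1, chip 2 HCC 1 and NT 2, and chip 3 HCC 2-1 and HCC 2-2. The deposited scanner files give raw intensity (pixel median per spot and of its local background at 635 nm), with no normalization recorded per the file headers. Over all probes with a value, the authors' deposited table of intensity values is close to linear in the spot intensity (r of 0.99996 or more). Its 0 lies near the blank level. Dim spots depart from the line. In NT 2, miR-103-1* at 13 scanner units had 10.8 and miR-107* at 14 units had 8.78. Its rule for empty values is not known here.

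Intensities were corrected by normexp (offset 50), and 1095 mouse probes were quantile normalized on the log2 scale in limma 3.58.1 (R 4.3.3); 1 probe with a spot marked not OK was left out. A single limma model with 3 groups and 6 arrays (3 residual and 1.63 prior degrees of freedom) tested the 613 probes that exceeded background on 2 or more arrays, 2-sided, with Benjamini-Hochberg adjustment at 0.05 per comparison. It was tested on simulated data. The offset compresses differences of dim probes such as miR-802 toward 0, and the number of arrays limits the precision. Shares are of summed blank-subtracted signal, with values below 0 set to 0. In the alternative setting with the blank level subtracted, values below 1 unit were set to 1.

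The members, lists, tests and alternatives were chosen with earlier results of these data known. Named miRNAs are the members, their star strands, the miR-15/16 family, the 3 probes nearest in profile and, of the metabolism list, those past the threshold or, with fewer than 2 per direction, the 2 of smallest unadjusted p. Alternatives changed the background correction, scaling, filter, variance prior, chip or replicate block and the arrays included. Treated HepG2 cells, which the series design mentions, were not analysed here.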

Additional observations from a re-analysis of the deposited data

How the results depend on the processing

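Besides the reported fit, 21 settings were run for miR-103 and miR-107 and 19 for miR-802, which has no value on all arrays in the authors' table and fails a filter on all 6 arrays. The direction was turned for miR-103 in HCC minus NT with the authors' values (-0.037), for miR-107 in HCC minus NT with the authors' values (-0.058), and for miR-103 when 1 array was left out, where HCC minus NT ranged from -0.039 (without NT 2) to 0.19 and NT minus normal liver from -0.055 (without NT 1) to 0.18. None of these passed, and miR-802 kept its direction in all 19. Values past the threshold that the reported fit lacks were miR-103 in HCC minus normal liver, 0.92 with median scaling (limma adjusted p = 0.0396) and 0.85 with upper-quartile scaling over all probes (0.0318), and miR-802 in HCC minus normal liver, -0.86 with upper-quartile scaling over probes above background on all arrays (0.00377). The last scaling moved the median of all tested probes by -0.27, -0.34 and -0.61 in HCC minus NT, NT minus normal liver and HCC minus normal liver, and the authors' values moved it by -0.07, 0.33 and 0.32. Relative to the shift of -0.61, miR-802 in HCC minus normal liver was -0.25, and relative to the median of the bright probes it was -0.77. Over all settings, adjusted p ran from 0.440 to 0.985 for miR-103 in HCC minus NT and from 0.00377 to 0.739 for miR-802 in HCC minus normal liver.

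The number of miRNAs past the threshold in HCC minus NT (0 in the reported fit) was 15 with upper-quartile scaling over probes above background on all arrays, 1 without a filter, 3 with a trended and robust prior and 1 with the spot's pixel mean, an alternative chosen after seeing the data. In NT minus normal liver (1 in the reported fit) these were 9 with that scaling, 5 with the authors' values and 5 with the trended prior. They were 0 with median scaling, upper-quartile scaling over all probes, the pixel mean, the fixed chip block or the replicate block. In HCC minus normal liver (1) they were 498 (484 of them lower), 14 and 8, and 0 with the pixel mean, the fixed chip block or the replicate block. Leaving out 1 array at a time gave 0 to 1 in both, and 0 in HCC minus NT.

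With the leading label number as a replicate block, HCC minus NT was 0.11 for miR-103 (limma adjusted p = 0.473), 0.14 for miR-107 and -0.14 for miR-802, and no call of the 3 changed. Deviations of HCC 1 and NT 1 correlated at 0.16, of HCC 2-1 and NT 2 at 0.02 and of HCC 2-2 and NT 2 at 0.15. With 2 NT arrays, the deviations of NT 1 and NT 2 are exact opposites, and HCC 1 correlated with NT 2 at -0.16. These correlations are therefore tied to each other and cannot decide whether the numbers pair the samples. Signal over background limits miR-802, whose values on 2 HCC arrays rest on spots at the level of the blanks, and the star strands. With the background choice, miR-802 in NT minus normal liver was -0.56 (offset 16), -0.51 (none) and -1.05 (blank level subtracted). In HCC minus normal liver it was -0.89, -0.995 and -3.21. The size of -3.21 depends on the floor of 1 unit, which HCC 1 and HCC 2-1 lay below.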
